A study of Danio rerio with 2 samples.

Results

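Among sorted blood cells of the zebrafish caudal hematopoietic tissue, 38 of 575 cells carried transcripts of at least 2 of the 3 genes rgs18, NAB1 and CCR9 while giving under 0.5% of their transcripts to neutrophil genes. A cell entered this set, called members here, when its well held at least 500 transcripts, when 2 or more of the 3 genes had 1 or more transcripts, and when npsn, mmp13a, MMP9, LECT2 and lyz together stayed under the 0.5% limit. Plate 20 held 17 members among 300 cells (5.67%), and plate 21 held 21 among 275 (7.64%). Members were thus chosen by their measured transcripts of these 3 genes and by their share of neutrophil transcripts. The 3 genes were picked with earlier results of these same cells known, so their own levels describe the set and carry no test, and the tests of other genes do not show that the set exists as a cell type.

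The protein encoded by rgs18 belongs to the regulators of G protein signalling, which switch off the alpha subunits that chemokine receptors activate. CCR9 is a chemokine receptor that, in mice, draws early lymphoid progenitors toward the thymus. NAB1 is a corepressor that binds EGR transcription factors and limits the immediate-early response. The caudal hematopoietic tissue is a niche in the larval tail, to which newly formed hematopoietic stem cells move from the dorsal aorta and where they multiply.

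The study sorted hematopoietic stem and progenitor cells from wild-type fish at 5 days post fertilization, with a labelled sort day of 6, into 2 plates of 384 wells, and sequenced them by CEL-seq2, which counts transcripts at their 3′ ends with molecular identifiers. Plate 20 is replicate 1 and plate 21 is replicate 2, and the labels do not say whether they came from separate animals. Plate was a block in the tests. The p-values thus rest on how far differences between sets varied from plate to plate, with the spread shared over genes, and that spread may be technical. The plate layouts name each well double, single or undefined without saying for which markers. Members were compared with all 537 other double or single cells of the same plates, and also with 2 narrower sets. These were 234 MYB-positive cells with little globin, and 54 neutrophil-gene cells at or over the 0.5% limit. The labels name no transgene, mutation or treatment, which does not show that the sorted fish carried no reporter.

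Member cells held a median of 6693 transcripts on plate 20 (895 to 14098) and 9985 on plate 21 (1896 to 22830), against medians of 7794 and 8948 in the other cells. Their summed transcripts came to 111718 and 196932, against 2725270 and 2840726 in the other cells. In such a member sum, 3 transcripts correspond to 26.9 CPM on plate 20 and 15.2 CPM on plate 21, CPM being transcripts of a gene scaled to the total of the summed cells. Globin transcripts made up between 0.25% and 1.12% of each member's total, with a median of 0.411%, against a median of 1.5% in the other cells, of which 158 exceeded 5%. No member did. Whether single transcripts of any gene reached a well from other cells was not tested, and the globin share gives the level that every member carried.

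The set rests on few transcripts per cell. CCR9 was found in 32 members, NAB1 (ENSDARG00000042940) in 28 and rgs18 in 19, and only 3 members carried all 3 genes. The pair NAB1 and CCR9 without rgs18 was the commonest combination, in 19 members, followed by rgs18 and CCR9 in 10 and rgs18 and NAB1 in 6. In 22 members at least 1 of the genes that admitted the cell had a single transcript, and in 4 members both did.

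Per cell, rgs18 ranged from 0 to 5 transcripts on plate 20 with a median of 1, and from 0 to 9.01 on plate 21 with a median of 0. NAB1 ranged up to 12.02 and 13.02 with a median of 1 on both plates, and CCR9 up to 32.12 and 17.03 with medians of 4 and 2. The deposited values are corrected for identifiers drawn more than once, which gives the decimals. When each cell was thinned to 2000 molecules, rgs18 was still seen in 7 of the 34 members that were deep enough (20.6%), NAB1 in 14 (41.2%) and CCR9 in 17 (50%), against 1.46%, 1.04% and 6.67% of 480 other cells. CCR9 was also found in 25 of 54 neutrophil-gene cells (46.3%), and in 36.2% of 47 after thinning, so it does not mark the members alone.

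Just outside the rule stood 65 cells with exactly 1 of the 3 genes and a neutrophil share under the limit, 26 on plate 20 and 39 on plate 21. Another 5 cells carried 2 or more of the genes and were left out by neutrophil shares of 1.12% to 5.64%. The members nearest that limit had 0.4999% and 0.346%, with a median of 0.0587% over all members.

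Of the marker genes that the rule did not use, rgs13a, a second regulator of G protein signalling, had transcripts in 29 of 38 members (76.3%, 95% exact binomial interval 59.8 to 88.6), against 12.3% of other cells (9.63 to 15.4). It was also found in 53.7% of the neutrophil-gene cells (39.6 to 67.4), so rgs13a does not mark the members alone. The adaptor gene sla2b, whose mammalian counterpart dampens antigen receptor signalling, was found in 11 members (28.9%, 15.4 to 45.9), against 2.23% of other cells (1.16 to 3.87) and 1.85% of neutrophil-gene cells (0.0469 to 9.89). These intervals cover counting error only. Summed over members, rgs13a stood at 591.7 and 376 CPM on plates 20 and 21, against 34.9 and 34.5 CPM in other cells, and sla2b at 134 and 35.5 CPM, against 2.57 and 2.82 CPM. Both genes were picked together with the rule and are given as a description.

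**Figure D1:**
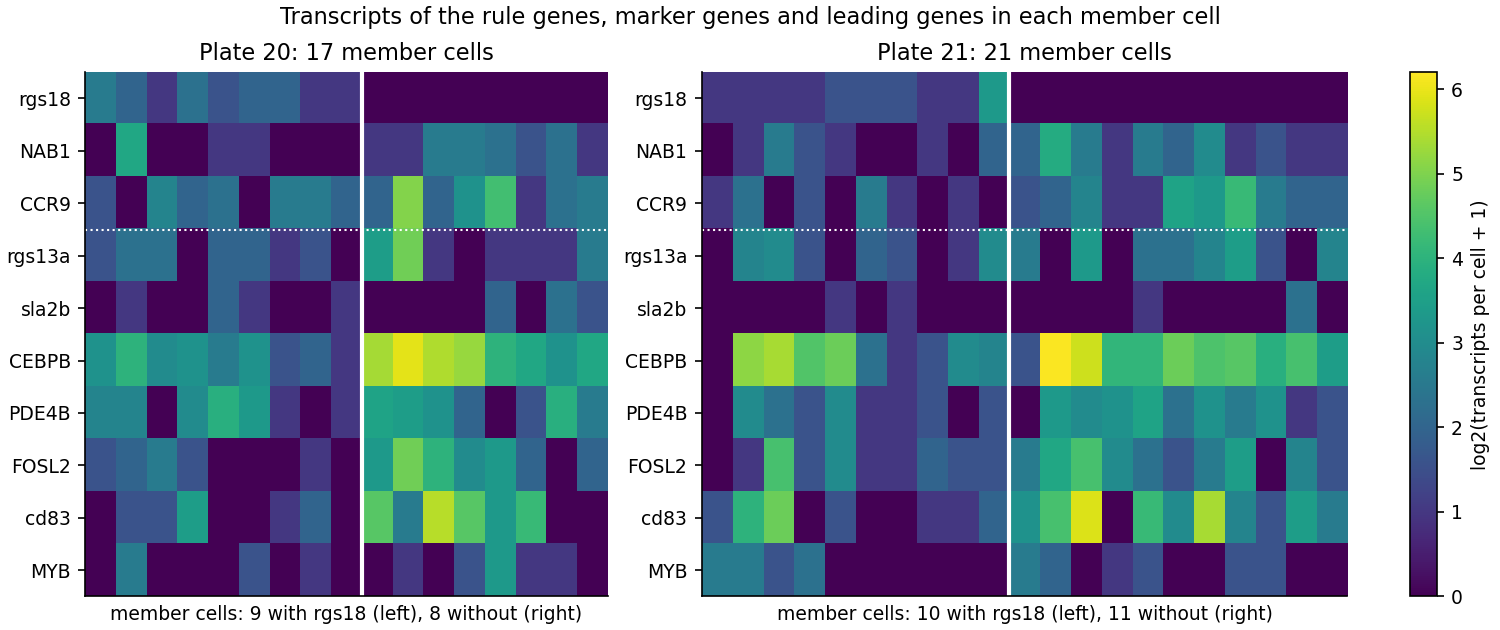
Each column is 1 of the 38 member cells and each row 1 gene, with colour giving log2(transcripts + 1); the white line divides members with rgs18 (left) from members without it (right), and the dotted line separates the 3 rule genes from other genes. CEBPB was present in 37 of the 38 cells, while rgs18 was present in 19 and sla2b in 11.

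Members came mostly from wells of the double sort class. On plate 20, 15 of 189 double cells (7.94%, exact Clopper-Pearson 95% interval 4.51 to 12.8) were members, against 2 of 111 single cells (1.8%, 0.219 to 6.36). On plate 21 the share was 21 of 186 double cells (11.3%, 7.13 to 16.7), against 0 of 89 single cells (0%, 0 to 4.06). Read as under 3 cells, that count of 0 lies below a share of 3.37%, which is a counting floor and not a 95% limit. The direction was the same on both plates, with the double share higher, but no test was made, since an exact permutation of the classes over 2 plates reaches a p of 0.5 at best. Detection depends on depth, so each cell was also thinned to 2000 molecules before the rule. Members were then 4 of 163 double cells (2.45%) and 1 of 97 single cells (1.03%) on plate 20. On plate 21 they were 7 of 174 double cells (4.02%) and 0 of 80 single cells.

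The layout of plate 21 gives no well numbers, and its wells were read along rows as on plate 20. Read down columns, plate 21 had members among 17 of 179 double cells (9.5%), against 5 of 94 single cells (5.32%), so the size of the contrast on that plate rests on the reading. Because plate 21 had no single member, genes could not be compared between double and single members.

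**Figure D2:**
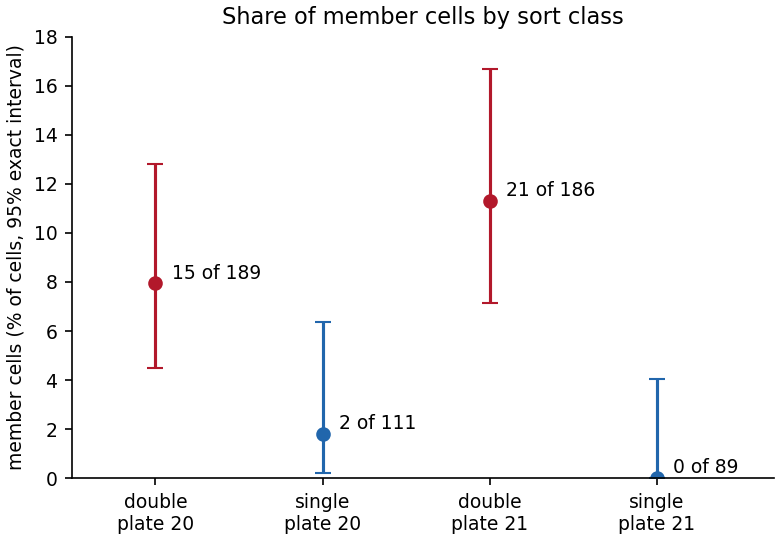
The points give the percentage of cells that were members in each sort class and plate, and the bars give exact 95% intervals for counting error. The double cells stood at 7.94% and 11.3%, against 1.8% and 0% in single cells.

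Outside the rule genes, members differed from the other cells by high levels of the transcription factor gene CEBPB, of the actin-binding genes CORO1A and LCP1 and of genes that respond to cell surface signals, and by low levels of red cell and cell division genes. With transcripts summed per plate and set and tested with edgeR's quasi-likelihood test, 12.3% of 8789 genes passed an adjusted p of 0.05. Of these, 532 genes (6.05%) were higher and 545 (6.2%) were lower in members. The median log2 fold over all genes tested was −0.22. The fit had 1 residual degree of freedom and took its spread from all genes together, so a gene carried by 1 cell could pass as easily as a gene found in most cells. For that reason the number of member cells with a transcript stands beside many of the genes. Where a gene is printed without that number, its result may rest on few cells. DESeq2 called 217 genes higher and 195 lower, and with cells thinned to 2000 molecules edgeR called 166 and 153 of 3004 genes.

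CEBPB (ENSDARG00000042725), a transcription factor of myeloid cells and of inflammatory gene expression, was high in nearly every member. It stood at 2553 and 2116 CPM in members of plates 20 and 21, against 246 and 219 CPM in other cells, a log2 fold of 3.28 ± 0.33 (SE, edgeR adjusted p = 1.54e-20). The levels of both plates were over those of the other cells. In single members CEBPB ranged from 1 to 60.44 transcripts on plate 20 with a median of 8.01, and from 0 to 70.6 on plate 21 with a median of 16.03, while the median of other cells was 0 on both plates. It was seen in 37 of 38 members and in 45.3% of other cells, and after thinning in 88.2% of members and 25.4% of other cells. Neutrophil-gene cells carried CEBPB as often, in 92.6% of cells and in 91.5% after thinning, so CEBPB does not mark the members alone.

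PDE4B, a phosphodiesterase that breaks down cyclic AMP, stood at 869 and 452 CPM in members, against 59.1 and 50.4 CPM in other cells, and was found in 32 members and 25% of other cells. Its log2 fold over other cells was 3.48 ± 0.35 (SE, edgeR adjusted p = 2.71e-20). PDE4B was also found in 70.4% of neutrophil-gene cells, against 84.2% of members, and after thinning in 44.7% against 70.6%. ZFP36L1, which encodes a protein that promotes the decay of AU-rich mRNAs, stood at 583 and 285 CPM, against 41.5 and 35.2 CPM, and was found in 23 members. Members on both plates were over the other cells for both genes. Of the gene models with no described role here, si:ch211-214p16.1 reached 555 and 763 CPM against 63.5 and 43.3 CPM in 29 members, and si:ch73-308b14.1 reached 1049 and 621 CPM against 87.1 and 57.8 CPM in 25. The unnamed gene ENSDARG00000079736 had 305 and 138 CPM in members, against 0.367 and 11.6 CPM in other cells, yet only 5 members carried it. A group of genes named si:dkey-21e2, with il13, ccl34b.4 and si:ch211-212d10.1, also ranked among the highest folds and came almost wholly from 3 members that are described separately.

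Receptor and G protein genes come first, since CCR9 and rgs18 act in that pathway. Of 9 tested chemokine and chemoattractant receptor genes, 5 rose and none fell, with a median log2 fold of 2.33. CXCR4 (ENSDARG00000041959), the receptor for the niche chemokine CXCL12, stood at 1004 and 1116 CPM in members, against 237 and 178 CPM in other cells (log2 fold 2.33 ± 0.33, SE, edgeR adjusted p = 1.38e-10), and was present in 33 members. A second CXCR4 gene (ENSDARG00000057633) had 71.6 and 55.9 CPM, against 3.3 and 2.46 CPM, in 10 members. The inflammatory chemokine receptor gene cxcr3.2 had 179 and 96.5 CPM, against 13.9 and 12.3 CPM, in 9 members. With 6 cells rich in si:dkey-21e2 transcripts left out, 3 members and 3 other cells, 3 of the receptor genes passed and their median log2 fold was 1.07.

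Downstream of these receptors, 3 of 14 G protein subunit and effector genes rose and none fell. They were 2 genes of the inhibitory alpha subunit GNAI2, with log2 folds of 2.95 ± 0.5 (ENSDARG00000017294) and 1.64 ± 0.39 (ENSDARG00000018174), and the receptor-silencing beta-arrestin gene ARRB2, with 1.76 ± 0.48 (SE). Of the 4 regulators of G protein signalling that could be tested outside the rule and marker genes, none passed the edgeR test. The nearest were rgs14a, at 17.9 and 35.5 CPM in members against 8.07 and 7.74 CPM in other cells (log2 fold 1.79 ± 0.87, SE, edgeR adjusted p = 0.18), and RGS19, with a log2 fold of 1.26 ± 1.07. Members held 2 and 7 transcripts of rgs14a and 2 of RGS19 on each plate.

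Several kinases and adaptors of immune receptors rose. Of 21 tested genes for antigen receptor and immune tyrosine kinase signalling, 12 rose and none fell, with a median log2 fold of 1.99. SYK, the kinase that relays B cell and Fc receptor signals, stood at 278 and 137 CPM in members, against 18.4 and 15.5 CPM in other cells (log2 fold 3.49 ± 0.43, SE, edgeR adjusted p = 2.2e-13), and was present in 20 members and 11.4% of other cells. PRKCQ, a protein kinase C of T cell activation in mammals, reached 179 and 101.6 CPM, against 17.2 and 6.34 CPM, in 14 members. The adaptor gene lcp2a, which links receptor kinases to calcium signalling, had 89.5 and 127 CPM, against 28.6 and 24.3 CPM, in 18 members, and ptprc, the leukocyte phosphatase CD45, had 251 and 132 CPM, against 57.3 and 50.4 CPM, in 23. The count was 7 with other cells of over 5% globin left out.

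NAB proteins act on EGR factors, and their neighbours in the immediate-early response were tested as a list. Of 26 tested genes, 13 rose and none fell, with a median log2 fold of 1.4. FOSL2, a subunit of the AP-1 transcription factor, stood at 780 and 570 CPM in members, against 75.3 and 59.2 CPM in other cells (log2 fold 3.27 ± 0.35, SE, edgeR adjusted p = 1.67e-18), in 31 members and 26.3% of other cells. The signal-induced nuclear receptor gene NR4A1 had 583 and 218 CPM, against 53.6 and 32.7 CPM, in 24 members, and its relative NR4A3 had 143 and 101.6 CPM, against 16.5 and 14.8 CPM, in 16. NAB2, the second corepressor gene, was detected in 7 members at 80.6 and 40.6 CPM, against 4.4 and 1.76 CPM. The early-response factor gene egr1 passed with a log2 fold of 2.38 ± 0.48, but 92.3% of its member transcripts came from the 3 si:dkey-21e2-rich members. With the 6 si:dkey-21e2-rich cells of both sets left out its log2 fold was −1.35, and 8 genes of the list passed.

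Genes of NF-κB signalling showed the same direction, with 6 of 15 tested genes higher, none lower and a median log2 fold of 1.32. With the 6 si:dkey-21e2-rich cells left out, 4 genes passed and the median was 0.51. REL, an NF-κB subunit of lymphocytes and myeloid cells, stood at 493 and 371 CPM in members, against 66.8 and 58.1 CPM in other cells (log2 fold 2.73 ± 0.34, SE, edgeR adjusted p = 2.93e-13), and was present in 26 members. The inhibitors that NF-κB induces also rose, with nfkbiaa at 718 and 652 CPM, against 199 and 162 CPM, and TNFAIP3 at 376 and 279 CPM, against 127 and 103 CPM.

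Transcription factors and cytokine receptors of lymphocytes gave a mixed picture. Of 14 tested lymphoid transcription factor genes, 9 rose and 2 fell (MYB, and rorca, named after its value was seen), with a median log2 fold of 2.44. RUNX3, a factor of cytotoxic and innate lymphocytes, stood at 188 and 91.4 CPM in members, against 20.2 and 11.6 CPM in other cells (log2 fold 3.05 ± 0.49, SE, edgeR adjusted p = 3.58e-08), in 17 members. ID2, an inhibitor of E proteins needed by innate lymphocytes and dendritic cells in mice, had 286 and 122 CPM, against 47.3 and 44.7 CPM, in 20 members. IKZF2 had 44.8 and 30.5 CPM in only 5 members. GATA3, a factor of T cells and innate lymphocytes, passed with a log2 fold of 4.41 ± 0.47, yet 88.2% of its member transcripts lay in the 3 si:dkey-21e2-rich members.

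Of 10 tested cytokine receptor genes, 6 rose and 1 fell (KIT, named after its value was seen), with a median log2 fold of 2.33. The common gamma chain gene il2rga had 143 and 122 CPM in members, against 29.7 and 27.1 CPM in other cells, in 19 members. The macrophage growth factor receptor gene csf1rb had 62.7 and 55.9 CPM, against 2.94 and 4.93 CPM, in 13 members. Without the plate block, 4 of these receptor genes rose and none fell.

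The actin-binding genes CORO1A, LCP1 and tmsb4x were higher in members on both plates. CORO1A, an actin-binding protein of hematopoietic cells, stood at 753 and 396 CPM in members, against 98.4 and 86.3 CPM in other cells (log2 fold 2.52 ± 0.34, SE, edgeR adjusted p = 1.56e-11), in 31 members and 20.3% of other cells. LCP1, the leukocyte plastin that bundles actin, had 1400 and 727 CPM, against 225 and 162 CPM. The actin monomer binder gene tmsb4x had 8359 and 5683 CPM, against 1903 and 1748 CPM. Every member carried tmsb4x, with a median of 42.21 transcripts on plate 20 and 47.27 on plate 21, against 3 and 4 in other cells. The highest member held 207 transcripts, below the highest other cell at 346.

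**Figure D3:**
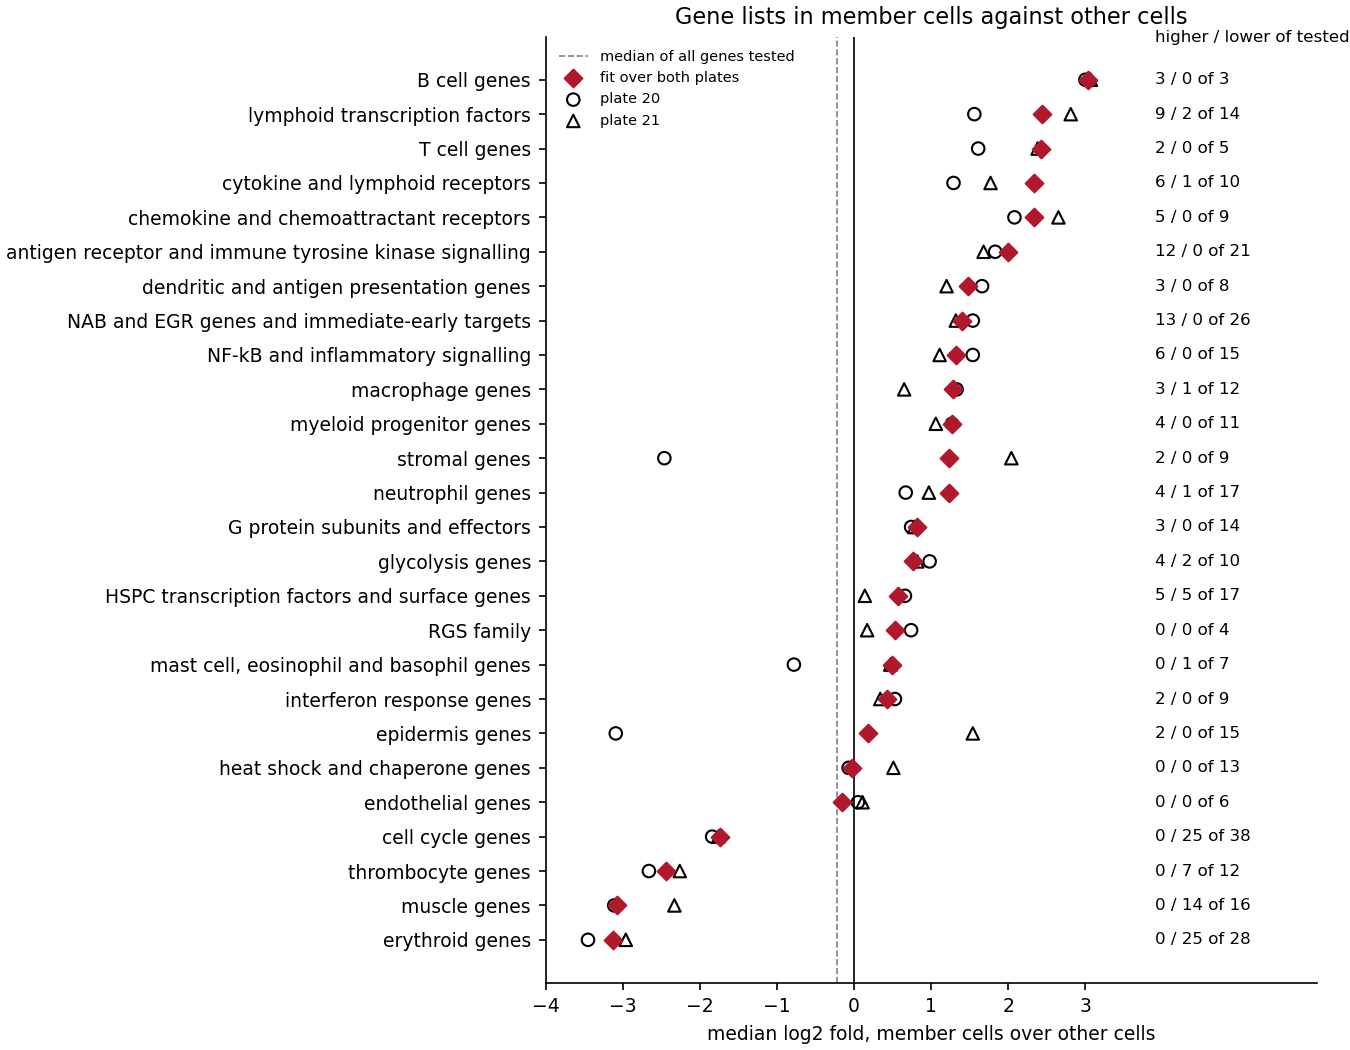
The rows are gene lists with at least 3 tested genes, ordered by the median log2 fold of members over other cells (diamonds), with the value of each plate alone as open symbols and the counts of genes that passed the edgeR test on the right. Erythroid genes stood lowest at −3.12 with 25 of 28 genes lower, and NAB, EGR and immediate-early genes stood at 1.4 with 13 of 26 higher.

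Red cell genes were low in members. Of 28 tested erythroid genes, 25 fell and none rose, with a median log2 fold of −3.12, and 22 fell when cells with over 5% globin were left out. The globin gene HBE1 (ENSDARG00000087390) stood at 224 and 208 CPM in members, against 3378 and 4514 CPM in other cells (log2 fold −4.23 ± 0.37, SE, edgeR adjusted p = 2.62e-27). The red cell carbonic anhydrase gene cahz had 170 and 127 CPM, against 2140 and 2098 CPM, and alas2, the first enzyme of heme synthesis in red cells, had 107 and 71.1 CPM, against 885 and 946 CPM. The unnamed gene ENSDARG00000089963 had no transcript in members, against 246 and 426 CPM in other cells, and was at least 9.15-fold lower on plate 20 and at least 27.9-fold lower on plate 21, taking 3 transcripts per member sum as the floor. Near-identical globin copies can share reads, so single globin genes are less certain than the list.

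Cell division genes were lower too. Of 38 tested cell cycle genes, 25 fell and none rose, with a median log2 fold of −1.74. PCNA, the sliding clamp of DNA replication, had 340 and 422 CPM in members, against 1249 and 1232 CPM in other cells (log2 fold −1.74 ± 0.33, SE, edgeR adjusted p = 4.57e-06). Members held a median of 2 PCNA transcripts on both plates, against 8.01 and 9.01 in other cells, and after thinning PCNA was found in 41.2% of members and 80.8% of other cells. TYMS, which makes thymidylate for DNA synthesis, had 26.9 and 5.08 CPM, against 134 and 168 CPM, and was present in 4 members. With globin-rich cells left out, 11 cell cycle genes fell, at a median log2 fold of −1.34. Low levels were shared with the neutrophil-gene cells, against which 0 of 13 tested cell cycle genes were called, at a median log2 fold of 0.05. The list summed to 2149 and 1976 CPM in members and to 2183 and 2456 CPM in neutrophil-gene cells.

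Of 12 tested thrombocyte genes, 7 fell and none rose. The gene rgs18, a platelet gene in mammals, was not counted. Of the 7, gata1a is also on the erythroid list, and LMO2 and GFI1B are also on the list of HSPC factors. The count is thus not separate from the results of those lists. The platelet tubulin gene tubb1 had 26.9 and 20.3 CPM in members, against 308 and 332 CPM in other cells, and the thrombocyte and red cell factor genes gata1a and NFE2 had log2 folds of −2.0 ± 0.37 and −4.1 ± 0.73 (SE). The platelet glycoprotein gene gp9 and the factor gene GFI1B had no transcript in members, against 24.95 and 22.2 CPM and 28.6 and 27.1 CPM in other cells. On plate 20, 3 transcripts in a member sum correspond to 26.9 CPM. The absence of gp9 there thus says little, and GFI1B lay just above that level. The defining gene itga2b had none in members, but stood at only 0.367 and 0 CPM in other cells. MYB, the factor of blood progenitors, was found in 18 of 38 members and stood at 197 and 157 CPM, against 347 and 361 CPM in other cells (log2 fold −1.05 ± 0.35, SE, edgeR adjusted p = 0.027). TAL1, which directs early blood and red cell fate, had 53.7 and 188 CPM, against 453 and 517 CPM, in 15 members.

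Muscle transcripts were also lower, with 14 of 16 tested genes down and a median log2 fold of −3.07. With muscle-rich, epidermis-rich and deepest wells left out, the median was −0.12 over 13 genes. One other cell on plate 20 held 249815 transcripts, and TTN, the giant sarcomere protein, stood at 1977 CPM in other cells of plate 20 and at 4.93 CPM in those of plate 21. Without the plate block 3 of the 16 genes passed, and the log2 fold of pvalb1 was 0.42 without these wells, against −3.27 ± 0.36 with them.

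Marker lists of other myeloid cells gave mixed results. Of 17 tested neutrophil genes outside the rule, 4 rose and 1 fell, LCP1 and si:dkey-21e2.16 among those that rose. EPX, the peroxidase of granulocytes, was tested in the list of mast cells, eosinophils and basophils. It stood at 0 and 35.5 CPM in members, against 319 and 259 CPM in other cells. The other cells include the neutrophil-gene cells, which the rule keeps out of members and which carried far more EPX. This fall thus follows at least in part from the choice of cells. Among myeloid factor genes outside CEBPB, SPI1 stood at 152 and 50.8 CPM, against 50.3 and 46.2 CPM, and CEBPA at 53.7 and 30.5 CPM, against 34.5 and 25 CPM, and neither passed (edgeR adjusted p = 0.244 and 0.751). Neutrophil-gene cells among the other cells carried more of both genes than members, so these 2 comparisons also depend on the rule. The second PU.1 gene spi1a did pass, at 71.6 and 188 CPM in 12 members, against 39.3 and 28.5 CPM (log2 fold 1.93 ± 0.46, SE, edgeR adjusted p = 5.68e-04), with 75.6% of its member transcripts in 4 cells. It did not pass by DESeq2 (adjusted p = 0.086) or with thinned cells (edgeR adjusted p = 0.684). Of 12 macrophage genes, 3 rose (csf1rb, cd68 and apoeb) and 1 fell (MFAP4). The median log2 fold was 1.28, and 10 of the 12 had a positive log2 fold. One MPEG1 gene (ENSDARG00000055290) had 0 and 5.08 CPM in members, against 13.95 and 1.76 CPM in other cells, and the other MPEG1 gene and c1qa had no transcript in members and under 3 CPM in other cells. These levels in other cells lay below 3 transcripts in a member sum, so the MPEG1 genes and c1qa say little. The riser apoeb, the lipid carrier of macrophages, had 97.9% of its member transcripts in 1 cell of plate 21, which gave 6.08% of its transcripts to muscle and epidermis genes. The same cell held 96.5% of the transcripts of the matrix gene SPARC.

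Lymphocyte lists were small after filtering. T cell genes rose in 2 of 5 tested, lcp2a and the adaptor gene sh2d1ab, while RAG1, RAG2 and THEMIS had no transcript in members and at most 2.82 CPM in other cells, below the level of 3 transcripts in a member sum. All 3 tested B cell genes rose, namely SYK, cd83 and BTK, which are not confined to B cells. The activation marker gene cd83 reached 1257 and 1142 CPM in members, against 156 and 129 CPM in other cells (log2 fold 3.03 ± 0.33, SE, edgeR adjusted p = 3.37e-17), in 28 members. Of 8 dendritic and antigen presentation genes, 3 rose, with the invariant chain genes cd74a and cd74b in 5 and 8 members. For flt3 and IRF8 there was no transcript in members and at most 2.57 CPM in other cells. A single NK and cytotoxic gene could be tested, the receptor chain gene il2rb, which rose to 107 and 25.4 CPM, against 7.34 and 9.15 CPM. All 8 genes of that list had a transcript in members, and their summed level was 205.9 and 40.6 CPM, against 9.91 and 12.7 CPM in other cells. Of these member sums il2rb alone gave 107 and 25.4 CPM. Many of the remaining plate 20 transcripts lay in 1 double member, so the sum is not a level shared by the members.

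A few members carried lineage genes that were too rare to test, and these cells were looked at after the values were seen. The immunoglobulin heavy chain genes ighm and ighd, which B cells express, had 12 and 6 transcripts in members, all on plate 21. The same 4 double cells without rgs18 held both genes, with 6, 2, 1 and 3 transcripts of ighm and 1, 1, 3 and 1 of ighd, against 1 of 537 other cells with both. These 4 members also carried spi1a, at 12.02, 4, 17.03 and 1 transcripts, while cd79a and cd22 had no transcript in any member and at most 2.935 CPM in other cells. The NK-lysin genes nkl.2, nkl.3 and nkl.4, which encode antimicrobial proteins of cytotoxic lymphocytes, had 1, 4 and 3 transcripts in members, against 2 of 537 other cells with any of them. One double member on plate 20 with rgs18 held 1, 3 and 3 of these, together with 3 transcripts of il2rb and 1 of the granzyme gene gzm3, and another member held the remaining nkl.3 transcript. The set thus includes cells with different lineage genes, and it is called by its rule.

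The other lists were glycolysis (4 of 10 higher, 2 lower), interferon response (2 of 9 higher), stromal and epidermis genes (2 of 9 and 2 of 15 higher), HSPC factors and surface genes (5 of 17 higher, 5 lower), myeloid progenitor genes (4 of 11 higher) and mast cell genes (1 of 7 lower, EPX). The plates differed in sign for stromal genes, with a median log2 fold of −2.46 on plate 20 and 2.04 on plate 21, and for epidermis genes, with −3.09 and 1.54. No gene passed among 6 endothelial and 13 heat shock genes. Of all genes tested, 6.05% were higher and 6.2% lower, so counts of 1 or 2 genes here are not read as results about a list. Over all genes tested, 2118 had an unadjusted edgeR p under 0.05.

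**Figure D4:**
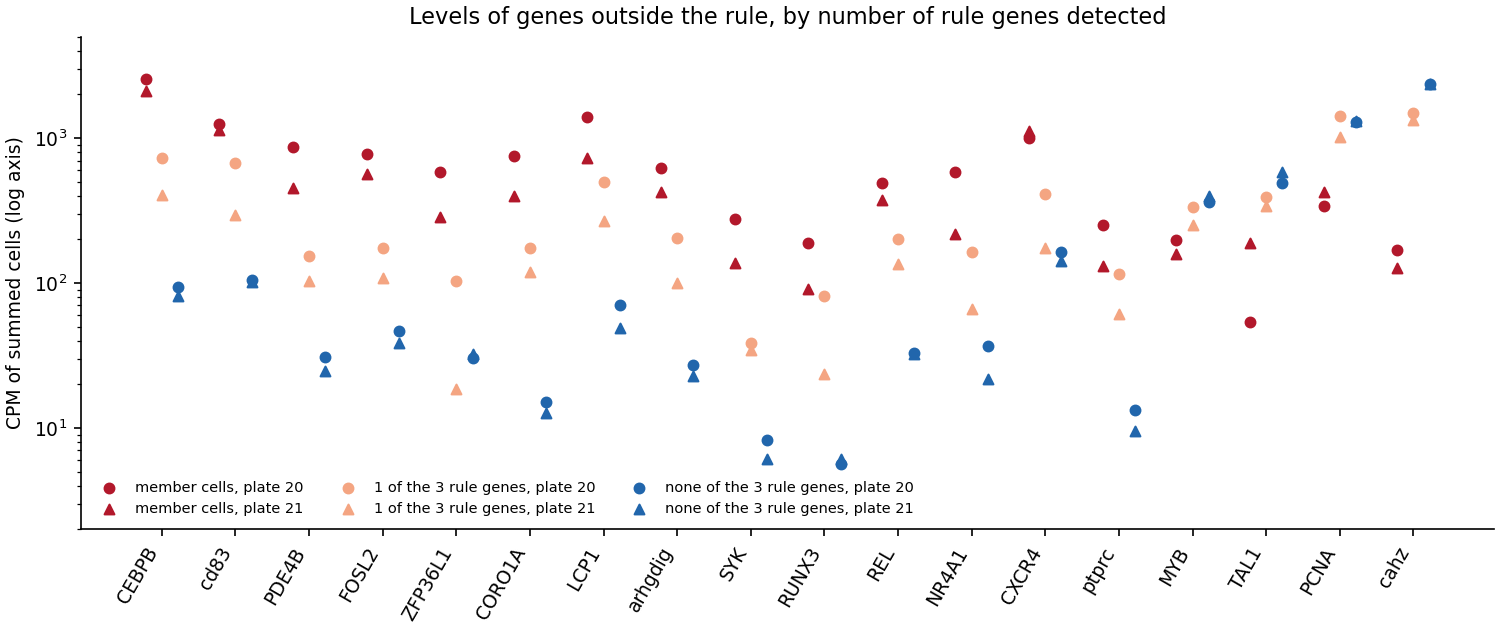
Summed CPM on a log axis for members, for cells with exactly 1 of the 3 rule genes and for cells with none, on plate 20 (circles) and plate 21 (triangles). Neutrophil-gene cells were left out of all 3 sets. CEBPB stood at 2553 and 2116 CPM in members and at 93.7 and 80.9 CPM in cells with none of the genes.

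Under the neutrophil limit, cells that missed the rule by 1 gene lay between members and cells with none for many of these genes. CEBPB stood at 2553 and 2116 CPM in members and at 726 and 407 CPM in the 65 cells with exactly 1 rule gene. It stood at 93.7 and 80.9 CPM in the cells with none, 226 on plate 20 and 192 on plate 21. CORO1A followed that order, at 753 and 396 CPM, then 176 and 119 CPM, then 15.11 and 12.7 CPM, and so did SYK, at 278 and 137 CPM, then 38.5 and 34.3 CPM, then 8.2 and 6.11 CPM. PCNA did not follow it, as members held 340 and 422 CPM, cells with 1 gene 1428 and 1013 CPM, and cells with none 1284 and 1314 CPM. Neutrophil-gene cells, which lie at or over that limit, were left out of all 3 sets, so the order was not examined across all cells. These levels are a description, with no test between the 3 sets.

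Against MYB-positive cells, which had a MYB transcript, under 5% globin and under 0.5% neutrophil transcripts, members had more CEBPB and CORO1A transcripts and fewer cell cycle transcripts. Of 6860 genes tested, 10.8% passed, 507 higher (7.39%) and 235 lower (3.43%), with a median log2 fold of −0.18 over all genes. The MYB-positive set of plate 20 included the well of 249815 transcripts, in a sum of 1701502, and this comparison was not run without it. Of 16 tested muscle genes 14 were lower in members. Muscle genes summed to 4407 and 985 CPM in members, against 38370 and 10480 CPM in MYB-positive cells. CEBPB stood at 2553 and 2116 CPM in members, against 128 and 97.2 CPM in MYB-positive cells (log2 fold 4.48 ± 0.33, SE, edgeR adjusted p = 6.86e-05). CORO1A had a log2 fold of 4.65 ± 0.39, with 753 and 396 CPM against 27 and 19.81 CPM. FOSL2 had 4.29 ± 0.41 and PDE4B 4.43 ± 0.38, each higher in members of both plates.

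One factor that did not pass against all other cells passed here. SPI1, the myeloid and lymphoid factor PU.1, stood at 152 and 50.8 CPM in members, against 15.9 and 3.96 CPM in MYB-positive cells (log2 fold 3.47 ± 0.57, SE, edgeR adjusted p = 0.00406), and ptprc, which passed against both sets, had a log2 fold of 3.63 ± 0.42. The other cells hold the neutrophil-gene cells that MYB-positive cells lack, and those carried SPI1 at 511 and 560 CPM. Of 22 tested immediate-early genes 12 rose, and of 34 cell cycle genes 10 fell. PCNA had a log2 fold of −1.59 ± 0.32, at 340 and 422 CPM in members against 1230 and 1223 CPM. TAL1 fell by 2.17 on the log2 scale (SE 0.46).

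Against neutrophil-gene cells, members had fewer granule gene transcripts and more of a few signalling genes, and CEBPB was not called different. Of 2188 genes tested, 10.9% passed, 54 higher (2.47%) and 184 lower (8.41%), at a median log2 fold of −0.04. Since the rule removed cells with neutrophil genes, the fall of that group follows from the choice of cells. It included CPA1, a carboxypeptidase gene, at 0 and 5.08 CPM in members against 1197 and 1335 CPM, and EPX, at 0 and 35.5 CPM against 4467 and 3877 CPM. LTA4H, which makes the chemoattractant leukotriene B4, had 80.6 and 101.6 CPM, against 2314 and 2064 CPM.

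Myeloid factors divided in this comparison. The 2 sets were chosen by opposite shares of neutrophil transcripts, so the levels of SPI1 and CEBPA are not independent of that choice. SPI1 was lower at 152 and 50.8 CPM in members, against 511 and 560 CPM in neutrophil-gene cells (log2 fold −2.41 ± 0.48, SE, edgeR adjusted p = 0.0389), and CEBPA was lower at 53.7 and 30.5 CPM, against 356 and 368 CPM. CEBPB was not called, at 2553 and 2116 CPM in members against 1634 and 1649 CPM (log2 fold 0.64 ± 0.3, SE, edgeR adjusted p = 0.204). The log2 folds of CORO1A, LCP1 and tmsb4x were −0.8 ± 0.34, −0.58 ± 0.32 and −1.07 ± 0.28 (SE), none called. Kinase and adaptor genes of immune receptors had 1 of 16 tested genes higher and 1 lower (median log2 fold −0.61). Chemokine receptor genes had 0 of 5 higher and 2 lower (−1.64). None of 8 G protein genes (−0.88) or 4 cytokine receptor genes (−0.58) was called. NF-κB genes had 0 of 8 higher and 1 lower (0.16). Immediate-early genes had 5 of 18 higher and 2 lower (0.72), and lymphoid factor genes 1 of 6 higher (0.55). Over all genes, 2.47% were higher and 8.41% lower. Summed erythroid genes stood at 5591 and 6411 CPM in members and at 5517 and 7297 CPM in neutrophil-gene cells, against 48480 and 59490 CPM in all other cells. The higher genes of the kinase and lymphoid factor lists were PRKCQ and GATA3. With si:dkey-21e2-rich cells left out neither was called higher, and 6 genes of the kinase list were lower.

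Genes higher in members than in neutrophil-gene cells included cd83, the activation marker gene, which had 1257 and 1142 CPM in members, against 126 and 134 CPM (log2 fold 3.33 ± 0.35, SE, edgeR adjusted p = 0.0138). PRKCQ had 179 and 101.6 CPM, against 0 and 5.83 CPM, but was not called higher with si:dkey-21e2-rich cells left out. The unnamed gene ENSDARG00000091038 had 934 and 1050 CPM, against 17.2 and 35 CPM. FOSL2 passed narrowly at a log2 fold of 1.43 ± 0.32 (SE, edgeR adjusted p = 0.0493), and NR4A1 stood at 1.76 ± 0.39. The progenitor zinc finger gene blf had 350 and 316 CPM, against 51.7 and 58.3 CPM (log2 fold 2.71 ± 0.37), although 43.6% of its member transcripts came from 1 cell. Without the plate block 132 genes were higher, and without si:dkey-21e2-rich cells 226 were, so this count moved with both settings.

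Within the 38 members, 3 cells stood apart by transcripts of the si:dkey-21e2 genes, a group chosen after its values were seen. RefSeq's GRCz12tu assembly places most of these genes close together on 1 chromosome and gives swift as the name of si:dkey-21e2.16. The genes made up 20.7% of the transcripts of 1 double member on plate 20, and 12.4% and 9.38% of those of 2 double members on plate 21. No other member exceeded 0.0626%. Across all 575 cells only 3 more were over 1%, at 15.2% and 14.7% on plate 20 and 12.6% on plate 21, and the next cell had 0.961%.

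The 3 further cells each carried CCR9 without rgs18 or NAB1 and so missed the rule, and they resembled the 3 members in other genes. Of these 3, the double cell of plate 20 also had a neutrophil share of 0.59%, over the limit, and so was among the neutrophil-gene cells. All 6 cells carried rgs13a, at 28.09, 6 and 10.01 transcripts in the members and 11.01, 13.02 and 9.01 in the others. All 6 also carried CCR9, at 32.12, 9.01 and 17.03 transcripts in the members and 3, 6 and 11.01 in the others. None carried rgs18 or sla2b.

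Cytokine and lymphocyte factor genes went with these cells. The type 2 cytokine gene il13 had 29.1 and 32.12 transcripts in 2 of the 3 members and 0 in the third, and 0, 28.09 and 2 in the others, while 0 of the remaining 35 members and 14 of 534 remaining cells had it, at 1 transcript each. GATA3 was present in all 6, at 23.06, 5 and 24.07 transcripts in the members and 1, 12.02 and 15.03 in the others, against 3 of the 35 remaining members and 19 of the 534 remaining cells. GATA2, a factor of progenitors and mast cells, was present in 5 of the 6 and in none of the 35. The cytokine gene il11b and the chemokine gene ccl34b.4 were present in all 6 and in 2 each of the 35. BATF, an AP-1 factor of lymphocytes, was present in 4 of the 6 and in 1 of the 35.

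Leaving these 6 cells out of both sets removed the differences in their own genes and kept most others. The log2 folds of si:dkey-21e2.16, si:dkey-21e2.15 and ccl34b.4 were then 0.03, −0.14 and 0.02, against 5.21 ± 0.37, 5.07 ± 0.37 and 4.13 ± 0.41 with them. CEBPB, PDE4B and CORO1A had log2 folds of 3.21, 3.44 and 2.42 without these cells. Of the genes higher in members than in other cells 391 passed, 378 of them among the 532.

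**Figure D5:**
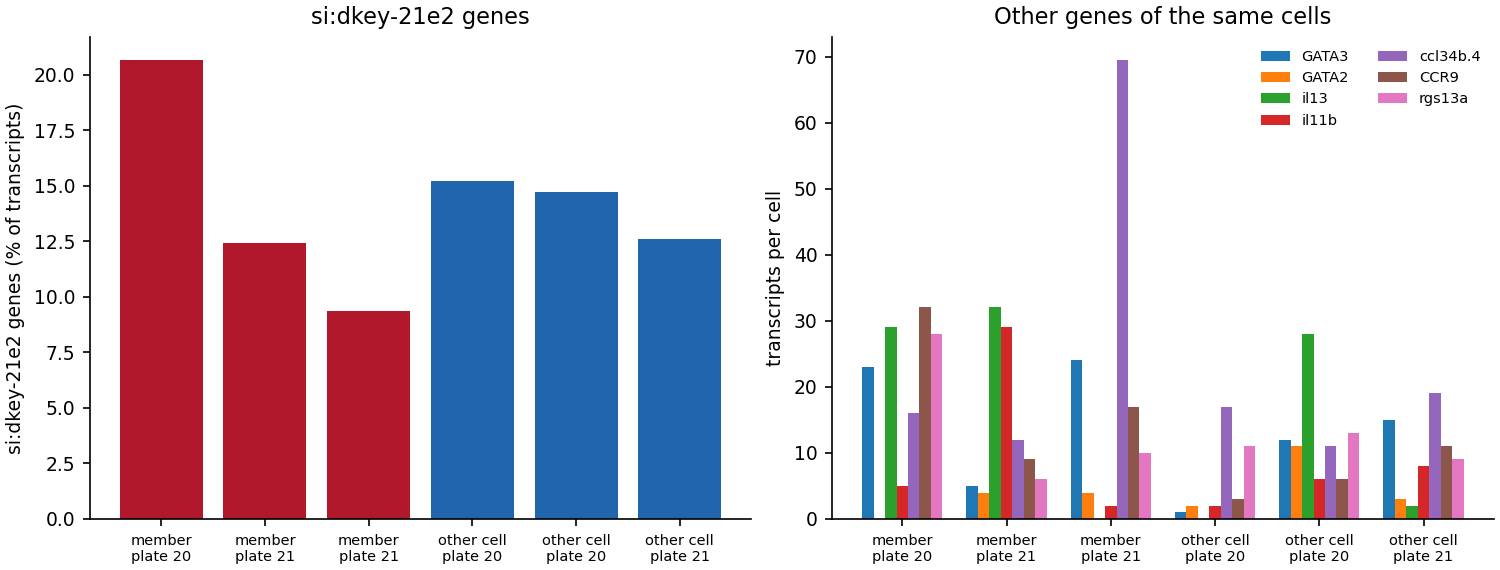
The left panel gives the percentage of transcripts from si:dkey-21e2 genes in the 6 cells above 1%, 3 members (red) and 3 other cells (blue), and the right panel gives transcripts per cell of 7 other genes in the same cells. The members held 20.7%, 12.4% and 9.38%, and all 6 cells carried GATA3, CCR9 and rgs13a.

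Members with and without rgs18, 19 cells each, differed in depth and in several levels. The median depth was 4344 and 4832 transcripts in members with rgs18 on plates 20 and 21, against 9932 and 12711 in members without it. On the scale of CPM, cd83 stood at 453 and 798 in members with rgs18, against 1700 and 1307 in members without it, and nfkbiaa at 453.5 and 125 CPM, against 863 and 906 CPM. CORO1A ran the other way, at 1109 and 515 CPM, against 556 and 339 CPM, and so did RUNX3, at 327 and 141 CPM, against 111 and 67.7 CPM. CEBPB had no common direction, at 1436 and 2255 CPM, against 3169 and 2049 CPM. The 3 si:dkey-21e2-rich members all lacked rgs18. Depth moved with the presence of rgs18, its part in these levels was not tested, and no test was made between the 2 groups, since rgs18 belongs to the rule.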

How the data were processed

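The submitters' processing notes name BWA and the build Zv9, while version, counter and filters are not given in the sources. The authors deposited expected counts of transcripts with no scaling. Within 0.01, 100% of the 1273614 nonzero values equalled a whole number of molecular identifiers corrected for 4096 possible ones. Sort classes came from the deposited plate layouts. Columns are numbered alike on both plates, which are separate libraries. Spike-ins were left out, and 15742 of 19955 gene IDs were paired with names, often those of human genes. The members and gene lists were chosen with earlier results of these data known.

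No doublet caller was run on sorted wells. Transcripts were summed per plate and set (4 sums), rounded to whole numbers and compared by edgeR's quasi-likelihood F test (version 4.0.16, R 4.3.3, two-sided) after filterByExpr and TMM scaling, with Benjamini-Hochberg adjustment over all genes tested. Both sets came from each plate, so the plate number pairs the sums and was a block. CPM values use the total of each sum, and per-plate folds had 1 CPM added. SEs were derived from F values. Intervals are exact Clopper-Pearson. Genes named were the rule and marker genes, the 15 smallest p in each direction with the same sign on both plates (8 in the narrower comparisons), up to 4 per list, and MYB, ptprc, SPI1 and CEBPA; not every one is printed, and others are said to be chosen after their values were seen. The test of members over other cells was also run on simulated sums with 1 common dispersion for all genes. That run cannot show how genes carried by few cells behave, and the other comparisons were not simulated. The result of 1 gene list is not reported here. Alternatives were DESeq2 1.42.0, its size factors, no filter, no block, thinning, other rules, cells left out and each plate alone.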

Additional observations from a re-analysis of the deposited data

How the results depend on the processing

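Shares of members by class depended on the rule. With all 3 genes needed they were 0.529% of double and 0% of single cells on plate 20, and 1.08% of double cells on plate 21. With rgs18 and NAB1 needed they were 1.59%, 0% and 3.23%. With cells thinned to 2000 molecules before the rule they were 2.45% of double and 1.03% of single cells on plate 20. On plate 21 they were then 4.02% of double and 0% of single cells. With plate 21 read down columns, 5.32% of its single cells were members.

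For members over other cells (532 genes higher, 545 lower), DESeq2 called 217 and 195, thinned cells 166 and 153, and the 3 cells with all 3 genes 1 and 18, a set of 2 cells on plate 21 and 1 on plate 20. In the setting that needs all 3 genes, members with only 2 of them joined the other cells. No filter on low counts gave 307 higher, leaving out globin-rich cells 344 lower, and sums per class 1060 lower. Over MYB-positive cells (507 and 235), DESeq2 called 283 and 146, thinned cells 104 and 33, no filter 733 lower, and leaving out si:dkey-21e2-rich cells, an alternative added after seeing the data, 434 lower. Over neutrophil-gene cells (54 and 184), DESeq2 size factors gave 91 higher, DESeq2 92 lower, no filter 152 and 338, thinned cells 98 higher, and leaving out si:dkey-21e2-rich cells 226 and 364. Without the plate block, 132 genes were higher than in neutrophil-gene cells, and the other counts moved by under 1.5 times, to 486 and 448 over other cells, to 478 and 219 over MYB-positive cells and to 273 lower over neutrophil-gene cells.

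Among the named genes, directions reversed as follows, with log2 folds over other cells. Leaving out si:dkey-21e2-rich cells gave −1.87 for si:dkey-21e2.4, −0.14 for si:dkey-21e2.15 and −1.35 for egr1, since those cells carried the genes. Needing all 3 genes gave −4.45 for si:dkey-21e2.16, −4.77 for si:dkey-21e2.15, −0.95 for FOSL2, −0.05 for cd83, −1.5 for SPI1, −1.19 for spi1a, −0.39 for LCP1, −0.27 and −0.68 for the GNAI2 genes, −0.19 for TNFAIP3 and −0.33 for TPI1, with 3 cells left. The remaining members counted among the other cells in that setting. Leaving out muscle-rich, epidermis-rich and deepest wells gave 0.42 for pvalb1 and −1.19 for SPARC, and DESeq2 gave −0.42 for SPARC. CEBPA was −0.5 with thinned cells and −0.22 with sums per class, for which the cause was not tested. Without plate 21 apoeb was −3.54 and without plate 20 it was 4.91, as its transcripts lay in 1 cell of that plate. Counts have no value for 1 plate alone, and the comparison of double with single members could not be fitted, so its alternatives were not run. Depth limits any gene under 3 transcripts per member sum, and 1 residual degree of freedom limits every p.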

Other observations

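Of 16 undefined wells with at least 500 transcripts, 1 on plate 21 met the rule; undefined wells entered no comparison. With plate 21 read down columns it also held single members, and for double over single members edgeR's quasi-likelihood test called 4 of 725 genes (46 at an unadjusted p under 0.05; smallest adjusted p 0.00054), a value that rests on that reading of the layout. The tumour necrosis factor receptor gene tnfrsf9a was found in 4 of the 6 cells rich in si:dkey-21e2 transcripts and in 2 of the 35 remaining members, while another cell outside both sets held 30.11 transcripts of it.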
